A study of Mus musculus with 13 samples.

Results

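The expression of 9 genes of retinoic acid metabolism and signalling was examined in mouse embryonic stem (ES) cells with and without induction of a phosphomimetic form of CTCF. The genes were chosen by symbol, as Cyp26a1, Cyp26b1, Rara, Rarb, Rarg, Stra6, Crabp1, Crabp2 and Aldh1a2, and all 9 were found among the 24421 genes counted and among the 20044 with at least 1 read in at least 1 library. F1-2.1 ES cells (CAST/Ei x 129/Sv/Jae) carrying a Tet-on CTCF S224E transgene were grown on irradiated mouse embryonic fibroblast feeders in medium with serum and LIF. In S224E a glutamate stands in for the serine that is phosphorylated in CTCF, the zinc finger protein that binds insulators and loop anchors. The 2 cultures with doxycycline (+dox) received 1 μg/mL for 6 days, and the 2 cultures without it (−dox) carried the same transgene uninduced. All 4 cultures came from clone A2, so that the comparison rests on 1 clone, and every culture also kept its endogenous CTCF. No library of cells that received dox but lack the transgene was analysed here, so that effects of dox and of S224E cannot be told apart.

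Retinoic acid is made from vitamin A in a short chain of reactions. Retinol is taken up by cells, oxidized to retinal by retinol dehydrogenases, and oxidized again to retinoic acid by retinaldehyde dehydrogenases such as Aldh1a2. Within the cell it is carried by Crabp1 and Crabp2 and cleared by the cytochrome P450 enzymes of the Cyp26 family, while Rara, Rarb and Rarg, paired with retinoid X receptors, bind DNA at retinoic acid response elements and activate transcription when the ligand is present. Cyp26a1 and Rarb are themselves textbook targets of the pathway, and retinoic acid is widely used to drive ES cells out of self-renewal.

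The promoters of Cyp26a1 and Rarb are shown because they were the only ones among the members' promoters that held a retinoic acid response element of the DR5 type. This element is a direct repeat of the half-site NGNTCA, with A or G at the first N and G or T at the other, and with 5 bases between the copies, and it was searched on both strands. The sequences are from RefSeq on GRCm38.p6, run from 250 bases before to 50 bases after the start of the gene, and are written 5′ to 3′ on the strand of the gene with the half-sites in capitals. The first lies at chr19:37697558-37697857 on the plus strand and the second at chr14:16575427-16575726 on the minus strand.
Cyp26a1: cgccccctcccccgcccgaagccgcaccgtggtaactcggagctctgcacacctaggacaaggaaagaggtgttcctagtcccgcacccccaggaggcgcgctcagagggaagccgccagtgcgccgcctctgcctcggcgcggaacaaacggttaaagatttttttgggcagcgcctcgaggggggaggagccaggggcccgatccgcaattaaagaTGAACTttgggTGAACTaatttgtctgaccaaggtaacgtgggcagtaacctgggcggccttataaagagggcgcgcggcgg
Rarb: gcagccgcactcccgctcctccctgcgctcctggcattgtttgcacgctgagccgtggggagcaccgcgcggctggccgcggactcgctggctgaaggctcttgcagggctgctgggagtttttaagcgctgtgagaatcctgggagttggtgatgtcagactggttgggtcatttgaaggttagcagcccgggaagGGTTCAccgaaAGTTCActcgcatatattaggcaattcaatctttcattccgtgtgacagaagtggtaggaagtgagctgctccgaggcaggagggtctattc

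In the Cyp26a1 promoter the element lay on the strand opposite to the gene, so that its half-sites read TGAACT as printed, and began 32 bases upstream of the start. In the Rarb promoter it lay on the strand of the gene and began 53 bases upstream. A DR5 element was found in 32 of all 32851 promoters of the same length, or 0.0974%, and in 2 of the 15 promoters that the table held for 8 of the members. The narrower form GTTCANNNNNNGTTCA, which lies within both elements, was found in 25 promoters in all, or 0.0761%. Crabp2 had no entry. The same repeat with 2 bases between the half-sites was found in 88 of all promoters (0.268%) and in 0 of the 15. The 12-letter core CCANNAGNNGGC, a part of the CTCF motif, was found on either strand in 797 of all promoters (2.43%) and in 0 of the 15. A match describes the letters of the window and does not show that a factor was bound there.

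A wider window, from 5000 bases before to 500 bases after each start on mm9, the build of the counts, held a DR5 element for 501 of 24349 genes, or 2.06%. Of the members 3 of 9 held at least 1, and the 4 elements are shown here on their own strand with the half-sites in capitals to compare their letters.
Cyp26a1, chr19:37770399-37770415, 1899 bases upstream of the start: GGGTCAcaggcGGGTCA
Cyp26a1, chr19:37772266-37772282, 32 bases upstream: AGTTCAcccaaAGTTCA
Rarb, chr14:17408027-17408043, 53 bases upstream: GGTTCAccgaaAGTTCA
Rarg, chr15:102081248-102081264, 4333 bases upstream: GGTTCAaagtgAGGTCA

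Cyp26a1 thus held both a distal and a proximal element, Rarb a proximal one and Rarg a distal one. Distances are from the start used in the counts, and the Rarg element lies downstream of another Rarg start in RefSeq. Of the 104 genes called lower with dox across the whole data set, at an adjusted p under 0.01 by edgeR, 2 held an element in the same window, or 1.92%. Of the 9 members, Cyp26a1 alone both held an element and was called changed.

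Libraries held 22899107 to 30206085 counted reads, and values are given as counts and as CPM, which are counts divided by the size of the library after edgeR's TMM scaling for composition, for +dox replicates 1 and 2 and then −dox replicates 1 and 2. Markers of ES cells were high in all 4 libraries, in which 14 of them summed to 6861 to 8327 CPM, led by Pou5f1, Esrrb and Sox2. With edgeR's quasi-likelihood test at an adjusted p of 0.01, 0 of these 14 were called, while 7 had an unadjusted p under 0.05, of which 6 were higher with dox, and DESeq2 called 0. With the replicate number as a block 4 were called, all higher. Fibroblast markers set the +dox replicates apart, since 30 of them summed to 5042 and 2712 CPM with dox and to 2292 and 2604 without, led by Fn1, Vim and Bgn, with none at 0. Of these 30 markers, 29 were higher with dox, 0 were called by edgeR, 22 had an unadjusted p under 0.05 and 1 was called by DESeq2. Of all genes tested, 17.8% had an unadjusted p under 0.05 and edgeR called 0.599%. DESeq2 called 2.71% of those to which it gave an adjusted p. With the replicate block 17 of the 30 were called, all higher with dox. Ctcf itself, for which reads of the transgene and of the endogenous gene were counted together, had 7363 and 7519 reads with dox and 9017 and 7636 without, a log2 fold change of 0.13 ± 0.09 (SE).

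Of the 9 members only Cyp26a1, the main retinoic acid hydroxylase of the early embryo, was called changed. It fell by 3.96 ± 0.31 (SE) on the log2 scale, a level 15.6-fold lower with dox than without. The receptors Rara and Rarg and the binding proteins Crabp1 and Crabp2 were the most abundant members in both groups, and their log2 fold changes lay between -0.09 and 0.55. Across all genes tested 0.599% were called, 0.519% as lower and 0.0798% as higher. The 9 genes were gathered with earlier results of the same contrast known, so the count of 1 in 9 is a description, and their values are given without p-values. In bulk RNA a smaller number of cells that express a gene and less RNA per cell cannot be told apart.

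**Figure D1:**
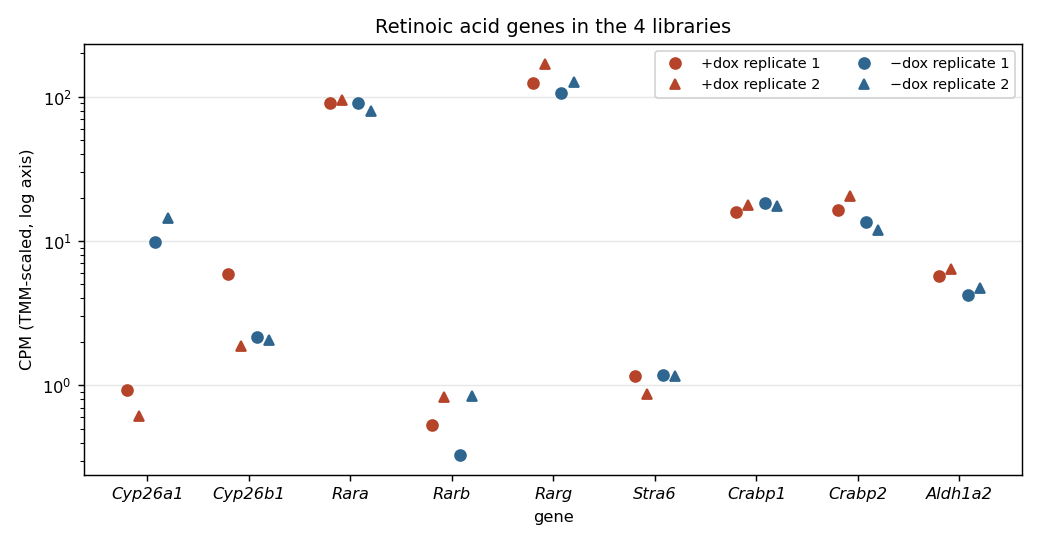
CPM, on a log axis, of the 9 genes in each of the 4 libraries, with a point per library, coloured by group and shaped by replicate number. For Cyp26a1 both +dox libraries lie below 1 CPM and both −dox libraries at 9.82 CPM or more, while the groups lie close together or overlap for the other 8 genes.

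Cyp26a1 (mm9 chr19:37772298-37776026, plus strand, counted over 1772 bases of exon) had 21 and 14 reads with dox and 300 and 362 reads without. On the CPM scale these were 0.933 and 0.613 against 9.82 and 14.4, or 0.773 ± 0.226 with dox and 12.1 ± 3.26 without (SD, n = 2). Both −dox libraries were far above both +dox libraries, and no value of one group came near the other. The log2 change within replicate 1 was -3.29 and within replicate 2 it was -4.39, from log2 CPM with a prior count of 2. Its exons, like those of the other 8 members, shared no bases with another gene annotated on NCBIM37, so that these reads were not divided with a neighbour.

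Cyp26b1 encodes the second retinoic acid hydroxylase (chr6:84521408-84543804, minus strand, 4742 bases) and took a different course. It had 133 and 43 reads with dox and 66 and 52 without, which gave 5.91 and 1.88 CPM against 2.16 and 2.07 CPM. A single library was high, +dox replicate 1, while +dox replicate 2 lay below both −dox libraries, and the groups overlapped. The means were 3.90 ± 2.85 CPM with dox and 2.12 ± 0.0626 CPM without (SD, n = 2), and the log2 fold change of 0.88 ± 0.42 (SE) was made of 1.42 in replicate 1 and -0.13 in replicate 2. Without +dox replicate 1 it was -0.17, and without +dox replicate 2 it was 1.48 and was called. The library high in Cyp26b1 was also the one with the highest sum of fibroblast markers, 5042 CPM against 2292 to 2712 CPM in the other 3, and the part of fibroblast RNA in the Cyp26b1 value was not tested.

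The balance of the 2 clearing enzymes was compared per length, as CPM per kilobase of counted exon. The ratio of the Cyp26a1 level to the Cyp26b1 level was 0.423 and 0.871 with dox and 12.2 and 18.6 without. Cyp26a1 was thus the more abundant of the pair in both −dox libraries and the less abundant in both +dox libraries. In +dox replicate 2 the levels were close, at 0.346 for Cyp26a1 and 0.397 for Cyp26b1, and the +dox ranges of the pair overlapped. The summed level of both was 1.77 and 0.743 CPM per kilobase with dox and 6.00 and 8.58 without, so that the sum, too, was lower in both +dox libraries, also in the one with the higher Cyp26b1 level.

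Cyp26c1, the remaining member of the family and the left-hand neighbour of Cyp26a1 at a distance of 4.50 kb, was nearly silent. It had 3 and 4 reads with dox and 15 and 15 without, a log2 fold change of -1.78 ± 0.68 (SE) with an adjusted p of 0.184 by edgeR. The ranges did not overlap, but at this depth the gene was not called. Exoc6, an exocyst subunit that lies 14.6 kb to the left, had a log2 fold change of -0.08. On the right, Myof, a membrane repair protein at 197.5 kb, and Cep55, a protein of cell abscission at 353.5 kb, had values of 0.38 and 0.12. Taking the nearest pair of genes on each side of all 9 members gave 36 neighbours, of which 33 had reads. Of these 0 were called by edgeR and 0 by DESeq2, 7 had an unadjusted p under 0.05, and their median log2 fold change was 0.08. Across all genes tested 17.8% had an unadjusted p under 0.05 and 0.599% were called by edgeR.

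Rarg (chr15:102065369-102076931, minus strand, 2710 bases), which encodes the retinoic acid receptor gamma, was the most abundant member per length. It had 2823 and 3875 reads with dox and 3219 and 3183 without, or 125.4 and 169.7 CPM against 105.4 and 126.9 CPM. The highest value was in +dox replicate 2 and the lowest in −dox replicate 1, and +dox replicate 1 lay just under −dox replicate 2, so that the groups overlapped. The means were 147.5 ± 31.3 and 116.1 ± 15.2 CPM (SD, n = 2), and the log2 fold change of 0.35 ± 0.14 (SE) was not called, though it was called without +dox replicate 1, at 0.55.

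Rara (chr11:98799010-98836256, plus strand, 3240 bases), which encodes the receptor alpha, had 2049 and 2173 reads with dox and 2762 and 2002 without. In CPM the values were 91.0 and 95.2 against 90.4 and 79.8. Both +dox values were above both −dox values, but the lower +dox library exceeded the higher −dox library by less than the spread within either group. The log2 fold change was 0.13 ± 0.11 (SE), with 0.01 in replicate 1 and 0.25 in replicate 2.

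Rarb (chr14:17263354-17407990, minus strand, 3030 bases), the receptor beta, had few reads in every library. It had 12 and 19 reads with dox and 10 and 21 without, or 0.533 and 0.832 CPM against 0.327 and 0.837 CPM. The groups overlapped completely, with the lowest and the highest value both in −dox libraries, and the log2 fold change was 0.26 ± 0.56 (SE). Rarb and Cyp26a1, which share a proximal DR5 element, thus differed in level in −dox cells, with 10 and 21 reads against 300 and 362.

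Per length, the summed level of the 3 receptors was 74.5 and 92.3 CPM per kilobase with dox and 66.9 and 71.7 without. Rarg made up 62.1% and 67.9% of this sum with dox and 58.1% and 65.3% without, and Rara nearly all of the rest. Rarb made up 0.161% to 0.385% in the 4 libraries. The ratio of Rarg to Rara was 1.65 and 2.13 with dox and 1.39 and 1.90 without, and the groups overlapped.

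**Figure D2:**
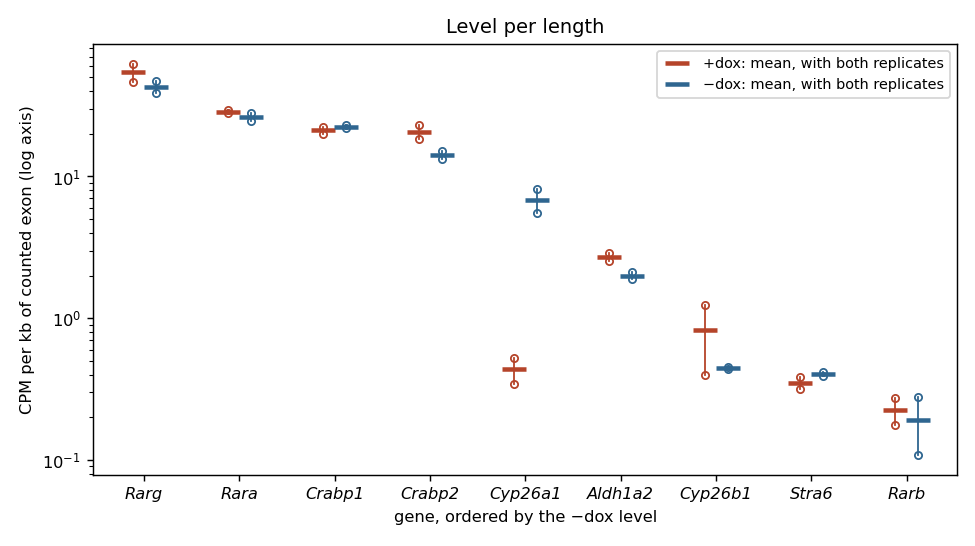
Level of each of the 9 genes as CPM per kilobase of counted exon, on a log axis, with an open point per library and a bar at the mean of each group (n = 2). Rarg, Rara, Crabp1 and Crabp2 lie at or above 14.2 CPM per kilobase in the mean of both groups, and Cyp26a1 moves from 6.84 without dox to 0.436 with dox.

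Crabp1 (chr9:54612555-54620917, plus strand, 796 bases) and Crabp2 (chr3:87752615-87757294, plus strand, 894 bases) encode the cellular retinoic acid binding proteins, of which the first is associated with sequestering and breakdown of the ligand and the second with its delivery to receptors. Crabp1 had 355 and 408 reads with dox and 564 and 436 without, or 15.8 and 17.9 CPM against 18.5 and 17.4 CPM. Its groups overlapped, and the log2 fold change was -0.09 ± 0.16 (SE). Crabp2 had 370 and 471 reads with dox and 411 and 298 without, or 16.4 and 20.6 CPM against 13.5 and 11.9 CPM. Both +dox libraries were above both −dox libraries for Crabp2, with means of 18.5 ± 2.96 and 12.7 ± 1.12 CPM (SD, n = 2). Its log2 fold change of 0.55 ± 0.18 (SE), or 1.46-fold, was the second largest in size after that of Cyp26b1 among the members higher with dox, and it was not called. The ratio of Crabp1 to Crabp2 per length was 1.08 and 0.973 with dox and 1.54 and 1.64 without, so that the pair was nearly even in the +dox libraries and tilted to Crabp1 in the −dox libraries.

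Aldh1a2 (chr9:71063596-71144050, plus strand, 2248 bases), the main enzyme that makes retinoic acid in the embryo, had 128 and 147 reads with dox and 129 and 119 without. In CPM these were 5.69 and 6.44 against 4.22 and 4.74. The +dox libraries were above the −dox libraries, the means were 6.06 ± 0.531 and 4.48 ± 0.367 CPM (SD, n = 2), and the log2 change was 0.42 in replicate 1 and 0.43 in replicate 2. The fitted log2 fold change of 0.44 ± 0.23 (SE), or 1.35-fold, was not called.

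Stra6 (chr9:57977156-58001804, plus strand) encodes the membrane receptor that takes up retinol from its carrier in blood, and takes its name from its induction by retinoic acid. It had 26 and 20 reads with dox and 36 and 29 without, or 1.15 and 0.876 CPM against 1.18 and 1.16 CPM. The +dox values were the lower ones, but +dox replicate 1 was nearly level with both −dox libraries, and the log2 fold change was -0.20 ± 0.38 (SE). Stra6 was the only member whose counts rested on different transcripts in the replicates, of 3016 bases in replicate 1 and 2746 bases in replicate 2, as was the case for 547 genes in all.

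**Figure D3:**
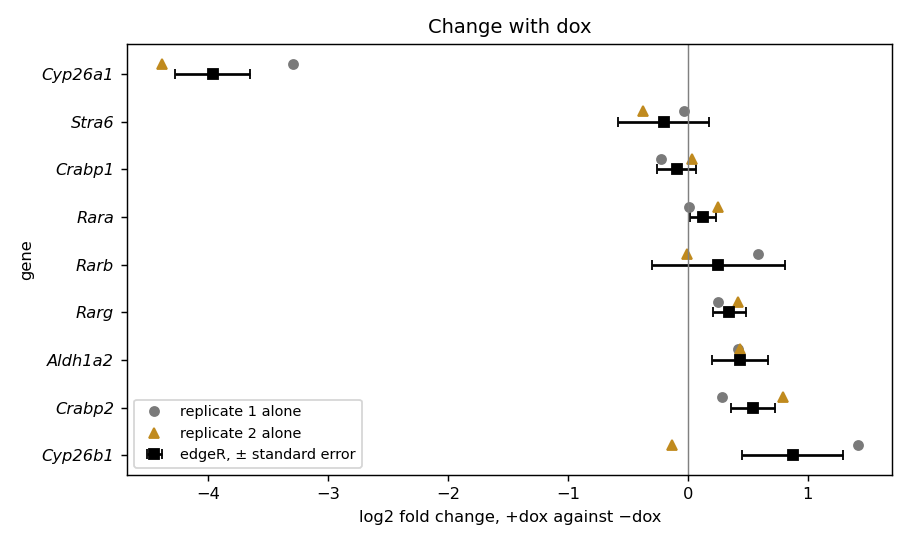
Fitted log2 fold change with dox of each of the 9 genes, with its standard error, and the changes within replicates 1 and 2 as separate points. Cyp26a1 lies at -3.96 with both replicates below -3, while the other 8 genes lie between -0.20 and 0.88, and Cyp26b1 has its replicates on either side of 0.

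Over the 9 genes, 6 were higher and 3 lower with dox, and 6 changed in the same direction in both replicates. The +dox libraries lay above the −dox libraries for 3 genes, Rara, Crabp2 and Aldh1a2, where 23.3% of all genes tested did so. They lay below for Cyp26a1 and Stra6, where 23.7% of all genes tested did so. An unadjusted p under 0.05 was found for 17.8% of all genes tested. The groups did not overlap for 5 of the 9 members and for 47% of all genes tested, a like share. The median log2 fold change of the members was 0.26 and that of all genes tested was 0.01. DESeq2 called 1 member, Cyp26a1, where it called 2.71% of the 13826 genes to which it gave an adjusted p.

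The order of the members' levels per length in −dox cells ran from Rarg (42.8 ± 5.60 CPM per kilobase, SD, n = 2) through Rara, Crabp1, Crabp2 and Cyp26a1 (6.84 ± 1.84) to Aldh1a2 (1.99 ± 0.163), Cyp26b1, Stra6 and Rarb (0.192 ± 0.119). In that order no 2 neighbours had overlapping ranges. With dox Cyp26a1 moved from rank 5 to rank 7, at 0.436 ± 0.128, below Aldh1a2 (2.70 ± 0.236) and Cyp26b1 (0.821 ± 0.600). There the ranges of Crabp1 and Crabp2 overlapped, as did those of Cyp26b1 with Cyp26a1 and of Cyp26a1 with Stra6, so that these neighbours could not be ordered beyond the spread of the libraries.

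The other genes of the retinoid pathway were taken from a list of 45 genes, of which 44 had reads and 30 a mean of at least 1 CPM. Of these 44, edgeR called 0 and DESeq2 called 0. An unadjusted p under 0.05 was found for 7, of which 2 were higher and 5 lower, and for 17.8% of all genes tested. In all, 23 of the 44 were higher against 21 lower, with a median log2 fold change of 0.03. Among the retinol and retinal dehydrogenases and reductases, 9 of 15 were higher and the median was 0.06. Rdh10, which makes the retinal that Aldh1a2 uses, had 286 and 253 reads with dox and 373 and 325 without, with a log2 fold change of -0.08 ± 0.18 (SE). Dhrs3, which returns retinal to retinol and is often induced by retinoic acid, had 105 and 78 reads against 143 and 143, a log2 fold change of -0.36 ± 0.26 (SE) and an adjusted p of 0.52 by edgeR. Among the genes of binding, uptake, storage and cleavage, 4 of 14 were higher and 10 lower, with a median of -0.12. For the other aldehyde dehydrogenases together with Cyp26c1, 4 of 5 were higher and 1 lower, with a median of 0.81. Only 2 of these 5 had a mean of at least 1 CPM.

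The partners of the retinoic acid receptors were abundant and were not called either. Rxra had 837 and 725 reads with dox and 1230 and 1042 without, and its CPM of 37.2 and 31.7 lay below the 40.3 and 41.5 of the −dox libraries. The log2 fold change of Rxra was -0.25 ± 0.13 (SE), with an adjusted p of 0.371 by edgeR. Rxrb, at 90.3 and 96.8 CPM with dox and 99.6 and 82.3 without, had overlapping groups and a log2 fold change of 0.04 ± 0.11 (SE). Rxrg was the least abundant of the 3, at 5.02 to 5.86 CPM, with a log2 fold change of 0.14 ± 0.23 (SE). Of the 10 nuclear receptors and coregulators on the list, 6 were higher and 4 lower, and the median was 0.04. Scarb1, a scavenger receptor that takes up carotenoids and lipids, was singled out after its values were seen because it came closest to a call. Its levels were 60.8 and 62.8 CPM with dox and 93.9 and 78.7 CPM without, with a log2 fold change of -0.48 ± 0.12 (SE) and an adjusted p of 0.0465 by edgeR. With the replicate number as a block in edgeR, Scarb1 passed the threshold, at an adjusted p of 0.00842. Aldh1a1, a retinaldehyde dehydrogenase, was also singled out after its values were seen. It had 90 and 10 reads with dox and 29 and 11 without, so that +dox replicate 1 alone was high, and its log2 fold change of 1.64 ± 0.72 (SE) was not called. As for Cyp26b1, the high library was the one with the highest fibroblast sum, and the part of fibroblast RNA in this value was not tested.

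**Figure D4:**
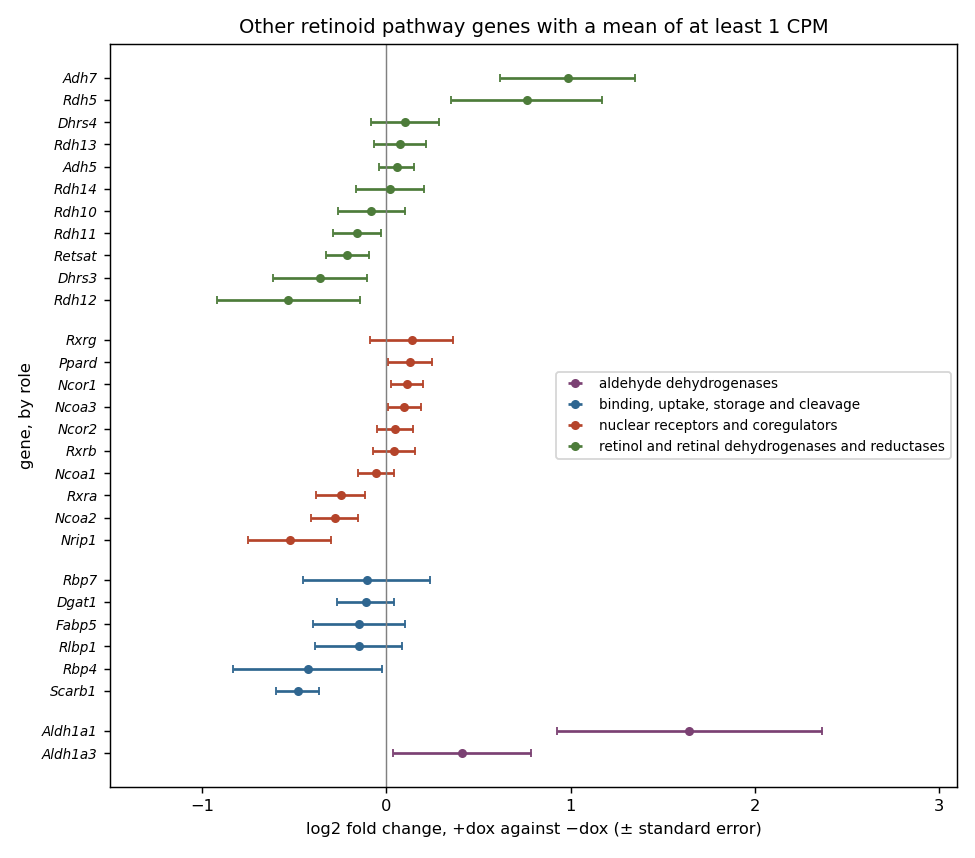
Fitted log2 fold change with dox, with its standard error, of 29 of the 30 other retinoid pathway genes that averaged 1 CPM or more, grouped and coloured by role. All 29 lie within 2 log2 units of 0 and 0 were called by edgeR, and the widest error is that of Aldh1a1.

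Of 33 genes with reads that are described as induced by retinoic acid in ES cells or embryos, 1 was called by edgeR, 20 were higher and 13 lower with dox, with a median log2 fold change of 0.27, which was 0.60 in replicate 1 and 0.09 in replicate 2. Gata6, an endoderm transcription factor, was the one called and fell by 2.16 ± 0.30 (SE) on the log2 scale, with an adjusted p of 0.00309. It had 37 and 25 reads with dox and 161 and 175 without. DESeq2 called both Gata6 and Gata4, a partner endoderm factor with a log2 fold change of -1.06 by edgeR, as lower. An unadjusted p under 0.05 was found for 21 of the 33, of which 14 were higher and 7 lower, and for 17.8% of all genes tested. EdgeR called 0.599% of all genes tested, and DESeq2 called 2.71% of those to which it gave an adjusted p. No gene of this list held a DR5 element in the window around its start, 0 of 33 where 2.06% of all genes did.

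The Hox genes, which pattern the body axis and are switched on by retinoic acid in differentiating ES cells, were singled out from this list after their values were seen. All 10 on the list were higher with dox, with log2 fold changes of 0.27 to 1.84. EdgeR called 0 of them and DESeq2 called 0, while 8 had an unadjusted p under 0.05, as 17.8% of all genes tested did. With the replicate number as a block 2 of the Hox genes, Hoxa3 and Hoxa5, were called. Their counts were low, from 4 to 134 reads in any library. Hoxa3 had 61 and 42 reads with dox and 24 and 13 without, with a log2 fold change of 1.78 ± 0.39 (SE) and an adjusted p of 0.0324 by edgeR. The median change of the 10 Hox genes was 1.34 in replicate 1 and 0.70 in replicate 2, while that of the 30 fibroblast markers was 1.46 and 0.30, and the part of fibroblast RNA in the Hox values was not tested. By fitted log2 fold change, Cyp26a1 and the Hox genes on the list thus stood on opposite sides of 0. Hoxa2, at 0.27 ± 0.73 (SE), was lower with dox in replicate 2, at -1.02. Both +dox libraries lay above both −dox libraries for 8 of the 10 Hox genes, where 23.3% of all genes tested did so. Of all 33 response genes, 20 were higher with dox and 13 were lower, as Cyp26a1 was.

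The lower Cyp26a1 level came together with lower levels of most genes listed for the primitive streak. The first mesoderm and endoderm of the embryo form there. Of the 21 genes on this list, 17 were lower with dox and 4, Nodal, Mesp2, Wnt3a and Tbx6, were higher. EdgeR called 10, all lower, namely T, Mixl1, Eomes, Lhx1, Cer1, Fgf8, Foxa2, Sp5, Fgf5 and Sox17. The median log2 fold change over the 21 was -1.26. Their summed level was 591 and 570 CPM with dox and 806 and 825 CPM without, and Lefty2 and Nodal, at means of 365 and 124 CPM with dox and 405 and 110 without, made up most of it in both groups. Of 14 primitive endoderm markers with reads, 8 were higher and 6 lower with dox, with a median log2 fold change of 0.12. Of these 14, 3 were called lower, Gata6, Foxa2 and Sox17, of which the last 2 are also on the streak list. The sums of the 14 were 601 and 483 CPM with dox and 504 and 533 without. That list was led by Lamb1, Lama1 and Col4a1, and Ttr, one of its markers, was at 0 in all 4 libraries. Of 10 neural progenitor markers 9 were higher and 1, Otx2, was lower with dox, at a log2 fold change of -0.31. Pax6 and Nkx2-9 were called higher. Nes and Otx2 led the list, and all 10 summed to 310 and 290 CPM with dox against 304 and 261 without. The part of these cell states in the Cyp26a1 value was not tested. Across all genes tested 0.519% were called lower and 0.0798% higher. The marker lists were chosen with earlier results of these data known, so their counts are a description.

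The genes most like Cyp26a1 over the 4 libraries were found by the Euclidean distance of centred log2 CPM among 13911 genes with 1 CPM or more on average. They were Lhx1, a homeobox factor (distance 0.408), Gbp2b, an interferon-inducible GTPase (0.823), T, the mesoderm factor Brachyury (0.962), Cer1, a secreted inhibitor of Nodal and BMP (1.08), and Foxa2, an endoderm factor (1.18). Lhx1 had 25 and 20 reads with dox and 525 and 533 without, and a log2 fold change of -4.27. For Gbp2b the reads were 21 and 10 against 151 and 183, and for Cer1 they were 3 and 2 against 158 and 141. These genes share with Cyp26a1 both −dox libraries above both +dox libraries and each fell by at least 2.79 on the log2 scale. Because they were chosen by likeness over these same 4 libraries, this follows from the choice and is no separate result. Likeness by Pearson correlation over the same 4 libraries, which disregards the size of a change, gave 0 of the same 5 genes.

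**Figure D5:**
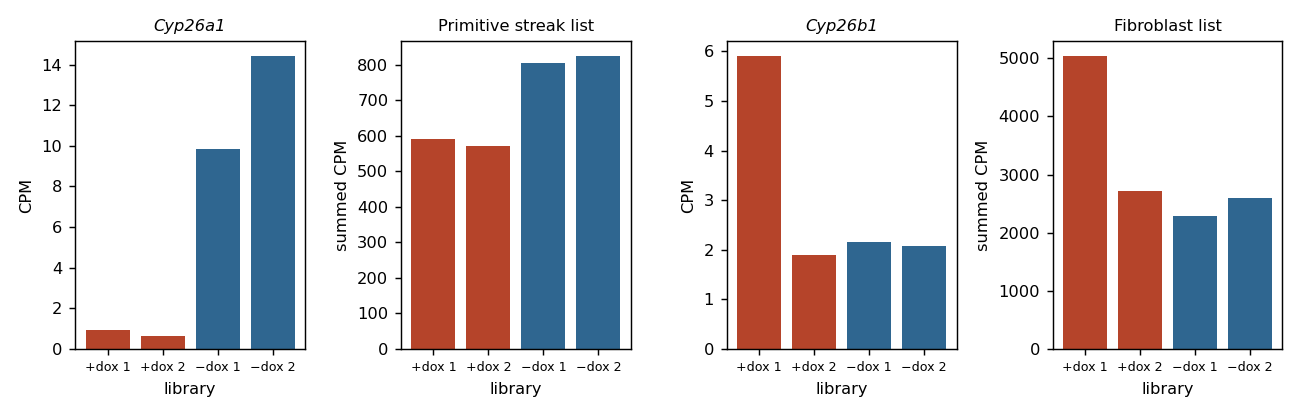
Bars give the CPM of Cyp26a1 and Cyp26b1 and the summed CPM of the primitive streak and fibroblast lists in each of the 4 libraries, from 0. Cyp26a1 and the streak sum are both lower in both +dox libraries, and Cyp26b1 and the fibroblast sum are both highest in +dox replicate 1.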

How the data were processed

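Poly(A) RNA of 4 cultures was sequenced from directional libraries. The authors deposited raw counts per gene, which HOMER made from uniquely mapped exonic reads. Before that, adapters had been trimmed (cutadapt), reads mapped to mm9 (TopHat2) and PCR copies discarded. Versions and use of strand are not given in the sources used here. Replicates are described as biological, and with 2 libraries a group, errors cover the spread between these libraries.

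The raw counts of both tables were joined by symbol. Genes with at least 1 read in at least 1 library were tested with edgeR 4.0.16 (R 4.3.3), with TMM normalization, the quasi-likelihood test without a replicate block and Benjamini-Hochberg adjustment over all genes, at a threshold of 0.01. Fold changes of single replicates used a prior count of 2. DESeq2 1.42.0 was an alternative, among others given with the results. The test was checked on simulated data, in which 200 genes were changed. It called 56% of them at a change of 1 on the log2 scale and 86.5% at a change of 2. In each case 4 unchanged genes were called. The changed genes were drawn only from genes above a minimum mean read count, which Rarb and Cyp26c1 did not reach. The shares called do not apply to genes with so few reads. Smaller changes were not simulated, so that a gene not called may still have changed. Members and gene lists were chosen with earlier results of these data known. Genes named are the 9 members, called genes of the pathway, response, flanking and marker lists, the receptor partners, Cyp26c1, Rdh10 and Dhrs3, up to 3 of the most abundant genes of each marker list, and the 5 genes most like Cyp26a1. Others are marked as chosen after their values were seen, apart from neighbours of Cyp26a1, Gata4, Ttr and Ctcf, which were also added then. A pathway gene that the rule also names is not reported or plotted here. Promoters are those of RefSeq on GRCm38.p6, and other coordinates are of mm9. ChIP-seq and Hi-C data were not analysed here.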

Additional observations from a re-analysis of the deposited data

How the results depend on the processing

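Each group held 2 libraries, and genes with few reads, such as Rarb, Stra6 and Cyp26c1, were limited by depth. The fold change of Cyp26a1 was between -4.29 and -3.66 on the log2 scale over 13 alternative settings and it was called in 10 of them. Its call was lost without either −dox library and with edgeR's adjusted deviances, settings under which 0 of all genes tested were called. The sign changed for Cyp26b1 in 1 setting and for Rarb in 2, and for no other member in the 13 settings.

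Leaving out single libraries gave 0 to 2 called members, 0 to 2 called genes of the other retinoid pathway list, 0 to 8 of the retinoic acid response list, 0 to 1 of the flanking genes and 0 to 992 of all genes tested. Without 1 library of a group, the other library of that group was taken to vary like the libraries of the other group. The higher counts came without a +dox library (992 without replicate 1 and 877 without replicate 2). The added member was Rarg without +dox replicate 1 and Cyp26b1 without +dox replicate 2. With adjusted deviances 0 members and 0 response genes were called. The response list gave 2 calls with DESeq2, 5 with the likelihood ratio test, 0 with filterByExpr and 5 at an adjusted p of 0.05, where the pathway list gave 1. Of all genes, 120 were called by the quasi-likelihood test, 375 by DESeq2, 457 by the likelihood ratio test, 11 with filterByExpr and 573 at 0.05. The cause of these differences was not tested.

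Libraries of the same replicate number deviated from their group means with a correlation of 0.196 over 13911 genes, and with 2 numbers this does not establish a pairing. With the replicate number as a block, 786 of all genes were called, 6 of the response list, 1 of the pathway list (Scarb1) and 1 member, Cyp26a1. Of the marker lists, the block gave 4 calls for ES cells and 17 for fibroblasts, where there were 0 without it, 14 for the primitive streak, 4 for the primitive endoderm and 3 for neural progenitors.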
